A study of Mus musculus with 3 samples.

Results

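The genes described here are 10 genes of MHC class I antigen presentation: *B2m*, *H2-K1*, *H2-D1*, *H2-T23*, *Tap1*, *Tap2*, *Tapbp*, *Nlrc5*, *Calr* and *Pdia3*. They were chosen by symbol, because *B2m* had the highest mean level of all genes apart from short noncoding ones, and they are 10 of the 24346 genes in the deposited table. The levels of *B2m* therefore chose the set, and they are given as a description. The samples were 3 bulk RNA-seq libraries, S38, S44 and S52, of lung endothelial cells (ECs) freshly isolated from adult wild-type male C57BL/6J mice aged 6 to 8 weeks. Living mice received an antibody to VE-cadherin, which marks ECs in contact with blood, and CD31+ CD45- Podoplanin- cells were sorted from the dissociated lungs. The 3 libraries form 1 group with no treatment, so no comparison between conditions and no test was possible. How many mice stand behind each library is not given in the sources used here, and the spread between libraries may be technical in part.

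MHC class I molecules show peptides from inside the cell to CD8 T cells, and almost every nucleated cell carries them. A polymorphic heavy chain pairs with beta-2-microglobulin in the endoplasmic reticulum, where the TAP transporter delivers peptides cut by the proteasome and a loading complex of tapasin, calreticulin and ERp57 helps a peptide to bind. The NLRC5 protein raises transcription of class I genes together with factors that sit on a composite promoter element, the SXY module. Interferon gamma is the classical inducer of the pathway. ECs line the vessel wall, where circulating T cells and natural killer cells meet them first.

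The promoters of the light chain gene and of both classical heavy chain genes are shown first, because they share an element that was not found in the other windows of members. RefSeq promoter windows of the GRCm38.p6 build, from 250 bases before to 50 bases after the annotated start, matched 8 of the 10 members. They were searched on both strands for TGACG, the core of the X box element that CREB-type factors bind, for the CCAAT box bound by NF-Y, for GGGNNTTCC as found in NF-kB sites, and for GAAANNGAA as found in interferon response elements. In *B2m*, *H2-K1* and *H2-D1* a TGACG on the gene's strand was followed 25 bases later, start to start, by a CCAAT box in reverse, which reads ATTGG. The stretches from the first to the second of these are given here with both in capitals:
B2m: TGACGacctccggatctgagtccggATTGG
H2-K1: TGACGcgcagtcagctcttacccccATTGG
H2-D1: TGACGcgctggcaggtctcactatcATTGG
H2-M3: TGACGcttctccaattcccattctaATTGG
H2-Q7: TGACGtgtaacagttctcacccctATTGG
They lie on the plus strand at chr2:122147609-122147638 for *B2m*, on the minus strand at chr17:34000359-34000388 for *H2-K1*, and on the plus strand at chr17:35262993-35263022 for *H2-D1*, chr17:37270188-37270217 for *H2-M3* and chr17:35439091-35439119 for *H2-Q7*. *H2-M3* and *H2-Q7*, non-classical heavy chain genes outside the 10, are added because they held the same arrangement, with 25 and 24 bases between the starts. The heavy chain gene *H2-Q4* was also scanned and did not hold it in these exact letters, nor did *Psmb8*, *Psmb9*, *Psmb10*, *Canx* or *Irf1*. In *H2-Q4* a TGACT stands 25 bases before the ATTGG, a variant that was not searched for. The lack of a match thus does not show that a promoter lacks such an element.

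Counting each gene once, 3 of the 8 members had a TGACG followed by the reversed CCAAT box within 20 to 35 bases, a range set after the windows had been seen. The same was found in 67 of 8879 genes that averaged 1 FPKM or more and had a window (0.755%), and in 95 of all 27025 genes with a window (0.352%). Single motifs were common. A TGACG was present in 5 of the 8 members, against 36.1% of the 8879 genes and 23.05% of all, and a CCAAT box in 8 of 8, against 42.6% and 41.1%. The GGGNNTTCC motif was present in *H2-K1* and *H2-D1*, against 8.80% and 6.58%, and GAAANNGAA in *B2m* and *H2-T23*, against 8.71% and 9.76%. Such a match describes the letters and was not shown to be bound in these cells. The lack of a match does not show that a promoter lacks an interferon response element. The windows of *H2-K1* and *H2-D1* hold tttcacttc, which on the other strand has GAA before GAAA, an order that was not searched for.

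The full windows of *B2m*, *H2-D1*, *H2-T23* and *Tap1* show how different the members' promoters are apart from these motifs, with every match of the 4 motifs in capitals:
B2m: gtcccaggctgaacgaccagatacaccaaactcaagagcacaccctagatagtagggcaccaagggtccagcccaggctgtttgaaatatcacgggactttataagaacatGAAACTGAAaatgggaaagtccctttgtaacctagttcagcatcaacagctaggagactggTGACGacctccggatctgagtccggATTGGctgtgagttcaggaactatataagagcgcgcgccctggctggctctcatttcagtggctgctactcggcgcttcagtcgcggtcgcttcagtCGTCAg
H2-D1: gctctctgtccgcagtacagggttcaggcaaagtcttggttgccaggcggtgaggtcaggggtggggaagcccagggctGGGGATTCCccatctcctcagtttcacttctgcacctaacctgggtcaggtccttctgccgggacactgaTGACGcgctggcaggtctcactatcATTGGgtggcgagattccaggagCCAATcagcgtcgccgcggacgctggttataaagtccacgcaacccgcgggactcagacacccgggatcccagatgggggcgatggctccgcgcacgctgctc
H2-T23: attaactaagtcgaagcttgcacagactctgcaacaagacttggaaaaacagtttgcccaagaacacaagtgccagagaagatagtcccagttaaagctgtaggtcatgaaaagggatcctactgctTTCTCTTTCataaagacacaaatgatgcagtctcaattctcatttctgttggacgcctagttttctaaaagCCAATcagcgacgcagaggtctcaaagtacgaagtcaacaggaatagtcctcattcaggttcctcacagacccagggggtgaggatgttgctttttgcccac
Tap1: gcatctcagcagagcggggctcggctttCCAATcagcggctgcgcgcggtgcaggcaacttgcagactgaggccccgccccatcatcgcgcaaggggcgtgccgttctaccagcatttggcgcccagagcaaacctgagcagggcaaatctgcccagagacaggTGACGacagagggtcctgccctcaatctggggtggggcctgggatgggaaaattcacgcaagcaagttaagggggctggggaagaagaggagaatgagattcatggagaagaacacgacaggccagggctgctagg
The windows lie at chr2:122147437-122147736 (plus strand) for *B2m*, chr17:35262844-35263143 (plus strand) for *H2-D1*, chr17:36032652-36032951 (minus strand) for *H2-T23* and chr17:34187306-34187605 (plus strand) for *Tap1*. Over 150 bases aligned at the TGACG, 90 before it and 60 from it on, the *H2-K1* and *H2-D1* windows were identical at 121 bases (80.7%), and those of *B2m* and *H2-K1* at 53 (35.3%). *Tap1* shares 275 bases of its window with that of the immunoproteasome subunit gene *Psmb9*, which is transcribed the other way.

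**Figure D1:**
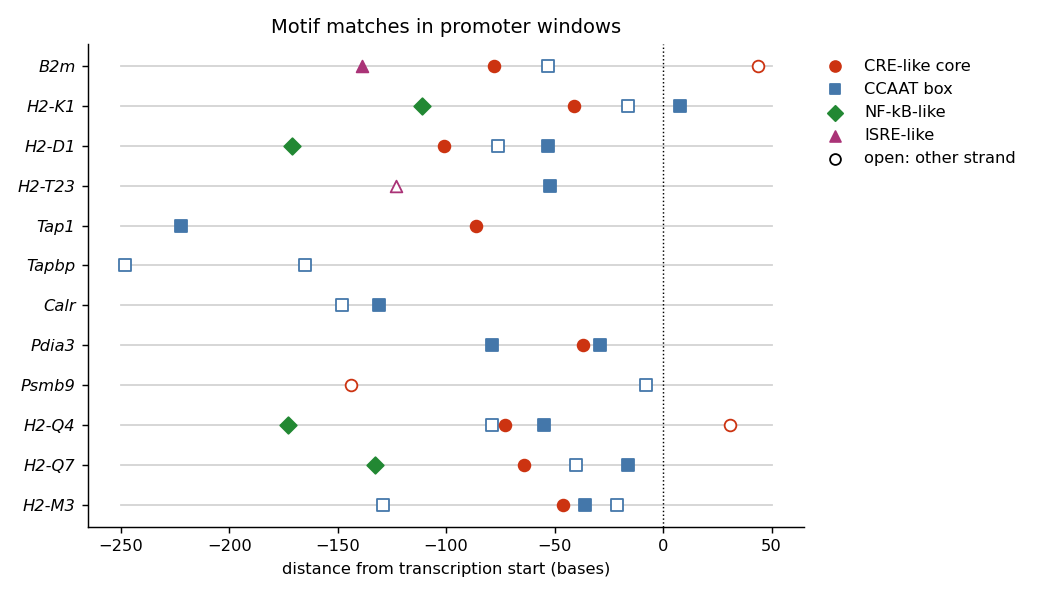
Matches of 4 motifs in the RefSeq promoter windows of 8 members and 4 related genes, by distance in bases from the annotated transcription start (dotted line). Filled symbols are on the gene's strand and open ones on the other strand. The CRE-like core is TGACG, and it is followed by an open CCAAT box 25 bases on in *B2m*, *H2-K1*, *H2-D1* and *H2-M3*, and 24 bases on in *H2-Q7*. For *H2-K1* 1 of 2 overlapping windows is drawn.

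Levels are given in FPKM, fragments scaled to transcript length and to the number of mapped fragments, so that levels of different genes can be set side by side. From the steps of low values, S38 held an estimated 38100000 fragments, S44 39300000 and S52 33900000. The sorted cells carried the endothelial markers *Pecam1* at 1125 FPKM in S38, 1216 in S44 and 1164 in S52 and *Cdh5*, the gene of VE-cadherin, at 877, 978 and 908 FPKM in the same order. RNA of other cells was also present and differed between libraries: the summed level of 5 alveolar type 2 markers was 3772, 3170 and 759.7 FPKM, with *Sftpc* at 3333, 2862 and 658, that of 4 platelet markers was 1692, 1345 and 37.96 FPKM, with *Ppbp* at 1054, 778 and 16.0, and that of 8 leukocyte markers was 1079, 812 and 171 FPKM. Of the leukocyte sum *Lyz2* alone made up 1047, 780 and 166 FPKM, and the pan-leukocyte gene *Ptprc* stood at 4.30, 2.06 and 0.434 FPKM. S52 thus stood apart from the others in every one of these lists.

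*B2m*, the light chain shared by all class I molecules, was read at 6618 FPKM in S38, 6531 in S44 and 5719 in S52, a mean of 6289 ± 496 (SD, n = 3). In every library it ranked 1st of the 23028 genes left after short noncoding genes were set aside. The next genes below it were *Tmsb4x*, the actin-binding thymosin beta 4, at 3615 ± 1004 FPKM and the elongation factor gene *Eef1a1* at 3058 ± 742 FPKM. The lowest library of *B2m* lay above the highest library of both, 4392 FPKM for *Tmsb4x* and 3913 for *Eef1a1*. *B2m* took 1.22% to 1.44% of the FPKM of all genes other than short noncoding ones.

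Both classical heavy chain genes were among the 18 highest genes by mean. *H2-D1* was read at 1733, 2097 and 1896 FPKM, again in the order S38, S44 and S52 that is kept below (1909 ± 182, rank 15) and *H2-K1* at 1302, 1851 and 1542 FPKM (1565 ± 275, rank 18). Their ranges overlapped, although *H2-D1* was the higher in 3 of 3 libraries, with a ratio of *H2-K1* to *H2-D1* of 0.816 ± 0.0658 (SD, n = 3). The non-classical heavy chain gene *H2-T23*, which encodes Qa-1, the partner of the NKG2A receptor on natural killer cells, was read at 330.5, 528 and 364 FPKM (408 ± 106), roughly at the level of *Calr*. As deposited, all 3 heavy chains were highest in S44 and lowest in S38, while *B2m* was lowest in S52. Summed, they amounted to 0.508 of the *B2m* level in S38, 0.685 in S44 and 0.665 in S52 (0.620 ± 0.0968, SD, n = 3).

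**Figure D2:**
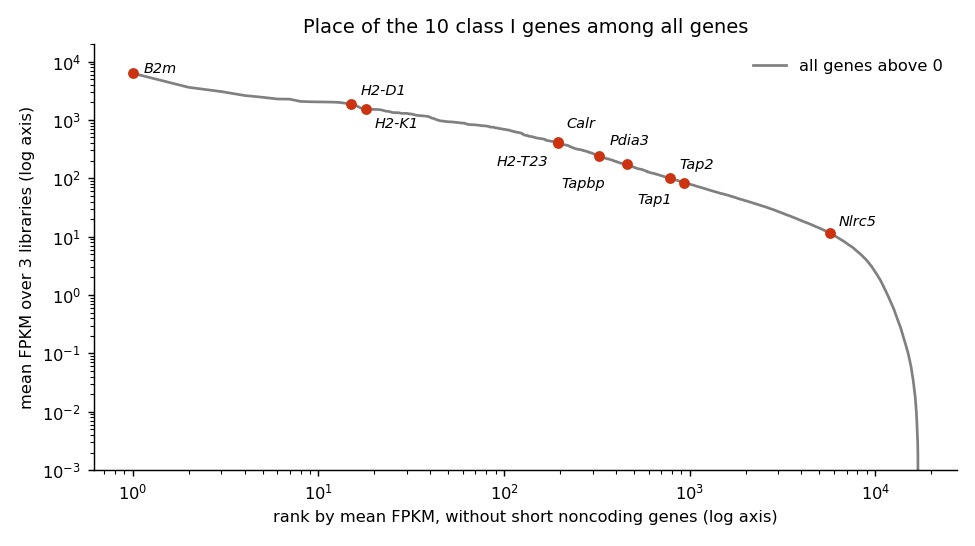
Mean FPKM over 3 libraries against rank for all genes above 0 other than short noncoding ones, both on log axes, with the 10 members as red points. *B2m* is at rank 1, *H2-D1* and *H2-K1* at 15 and 18, and *Nlrc5* at 5700 of 23028.

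The 2 genes of the peptide transporter were far below the chains that it serves. *Tap2* was read at 84.9, 126 and 89.5 FPKM (100.3 ± 22.8) and *Tap1* at 62.8, 120.2 and 70.5 FPKM (84.5 ± 31.2). The ranges of both overlapped, and the ratio of *Tap1* to *Tap2* was 0.826 ± 0.11 (SD, n = 3). In both genes S44 was the highest library, at 1.91 times S38 and 1.71 times S52 for *Tap1* and at 1.49 and 1.41 times for *Tap2*.

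Of the loading complex, *Calr*, encoding the chaperone calreticulin, was read at 432, 427 and 374 FPKM (411 ± 32.5). *Pdia3*, encoding the disulfide isomerase ERp57, was read at 286, 257 and 194 FPKM (246 ± 46.9). *Tapbp*, encoding tapasin, which bridges the transporter and the empty class I molecule, was read at 149, 221 and 149 FPKM (173 ± 41.6). *Calr* and *Pdia3*, which also fold glycoproteins in general, were highest in S38 and lowest in S52, and *Tapbp* was highest in S44. *Tapbpl*, the tapasin-related peptide editor, was also highest in S44 (50.8, 65.9 and 51.7 FPKM), whereas the chaperone calnexin gene *Canx* stayed between 81.8 and 88.9 FPKM.

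*Nlrc5*, the transactivator of class I genes, was the lowest member, at 10.0, 18.6 and 5.72 FPKM (11.4 ± 6.54). It also spread most, with S44 at 3.25 times S52 and 1.85 times S38. Read as fragments over its 7578-base transcript, these levels rest on about 2836, 5406 and 1440 fragments, so that counting error alone is 1.36% to 2.64% and far below the gap between libraries. For *B2m* the same estimate gives 137646 to 177099 fragments.

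In the order of means, *B2m* stood above *H2-D1* by 3.30-fold, *H2-K1* above *Calr* by 3.81-fold, *H2-T23* above *Pdia3* by 1.66-fold, *Tapbp* above *Tap2* by 1.73-fold and *Tap1* above *Nlrc5* by 7.39-fold, each with ranges that did not overlap. The other neighbours overlapped: *H2-D1* with *H2-K1*, *Calr* with *H2-T23*, *Pdia3* with *Tapbp*, and *Tap2* with *Tap1*. A mean of at least 100 FPKM was reached by 8 of the 10 members, all but *Tap1* and *Nlrc5*, against 7.54% of the 11770 genes that averaged 1 FPKM or more. Since the set was chosen on the level of *B2m*, nothing is read from that contrast. *Tap2*, at 100.3 FPKM, lies just inside that limit and *Tap1*, at 84.5, just outside it.

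**Figure D3:**
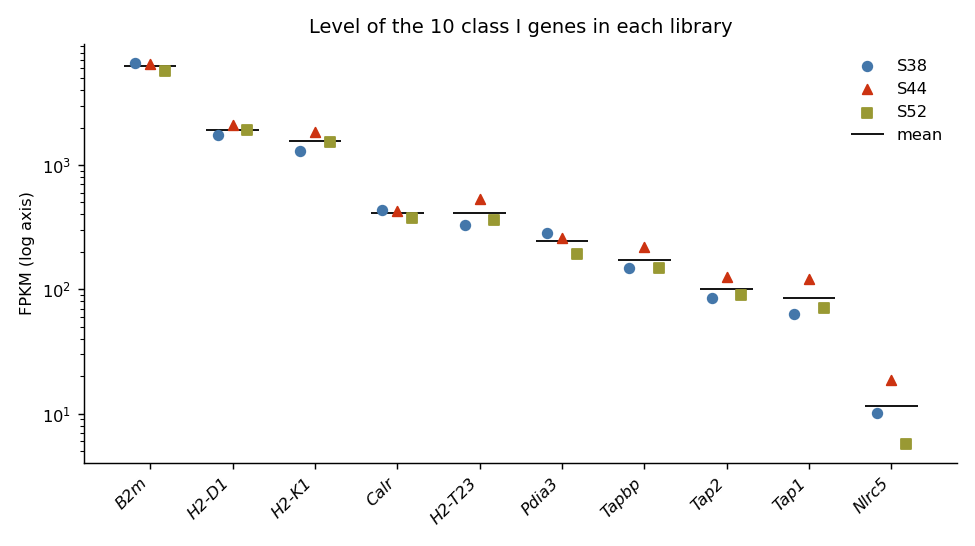
FPKM of the 10 members in each library, on a log axis, ordered by mean (black line). *B2m* lies between 5719 and 6618 FPKM, the classical heavy chains between 1302 and 2097, and S44 (triangles) is the highest library for 7 of the 10 genes, or 6 with equal column sums.

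The spread between the 3 libraries divided the members. The highest library was over 1.5 times the lowest for 3 of 10 members (*H2-T23*, *Tap1* and *Nlrc5*), against 41.7% of the 11770 genes, a share of members not above that background. As deposited, the lowest library was S52 for 4 of 10 members (*B2m*, *Calr*, *Pdia3* and *Nlrc5*), a share close to the background of 46.3% of genes. With equal column sums it was S52 for 9 of 10, against 40.1% of genes. S44 was the highest library for 7 of 10 members, namely the 3 heavy chains, *Tap1*, *Tap2*, *Tapbp* and *Nlrc5*, against 28.9% of genes. For 5 of 10, *H2-T23*, *Tap1*, *Tap2*, *Tapbp* and *Nlrc5*, S44 was over 1.25 times each of the others, against 6.24% of genes. With equal column sums, a rescaling in which short noncoding genes carry most of the weight, these counts were 6 of 10 (4.05% of genes), *H2-D1* then being highest in S38, and 2 of 10 (1.39%), *Tap1* and *Nlrc5*. Among 790 genes that averaged 100 FPKM or more, short noncoding ones left out, the shares as deposited were 35.1% and 4.05%. Attention to S44 followed from seeing these values, so the last 2 counts are descriptions of 1 library.

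On the log2 scale the median ratio of S44 to S38 was 0.54 over the 10 members, and 0.01 over the 5463 genes with at least 10 FPKM in every library. The median ratio of S52 to S38 was 0.04 over the members. In bulk RNA, a change in the share of cells of some type cannot be told from a change in RNA per cell. All 4 platelet, 5 alveolar type 2 and 5 airway markers were highest in S38, as were 4 of 6 detected leukocyte markers. The sums of those markers were lowest in S52. As deposited, *H2-K1*, *H2-D1* and *H2-T23* were higher in S52 than in S38. With equal column sums they were lower in S52, at 1087, 1336 and 257 against 1128, 1502 and 286 in S38. Other marker lists differed: 3 of 4 mural and 2 of 4 alveolar type 1 markers were highest in S52, and 3 of 4 fibroblast markers in S38. Of 3 erythroid markers 2 were highest in S44, where their sum was 468 FPKM against 337 in S38 and 94.5 in S52. The part of any of these cell types in the levels of the members was not tested.

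Including *H2-T23*, 24 genes beside *H2-K1* and *H2-D1* had a value, 15 of them averaging 1 FPKM or more. Of those 15, 12 were highest in S44, or 7 with equal column sums. For this and later lists, the share of all genes averaging 1 FPKM or more was 28.9%, or 4.05% with equal column sums. The highest beside *H2-T23* were the Q region genes *H2-Q4* at 393, 537 and 493 FPKM and *H2-Q7* at 178, 269 and 228 FPKM. *H2-Q6* (79.4, 125 and 194 FPKM), *H2-T22* (34.9, 38.2 and 56.1) and the pseudogene *H2-K2* (15.5, 15.9 and 21.9) were instead highest in S52. *H2-M3*, which presents formylated bacterial peptides, was read at 41.0, 58.8 and 37.4 FPKM. *H2-M1*, *H2-M9* and *H2-M11* were listed at 0 in every library. All 26 together summed to 4546, 6124 and 5165 FPKM, of which *H2-K1* and *H2-D1* made up 65.9% ± 1.26 (SD, n = 3).

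**Figure D4:**
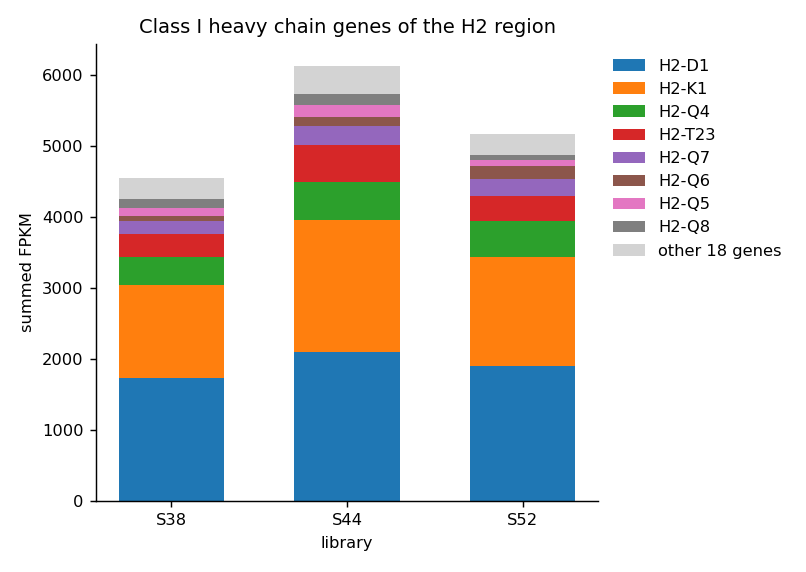
Summed FPKM of the 26 class I heavy chain genes of the H2 region in each library, with the 8 highest genes as separate blocks. The sums are 4546 in S38, 6124 in S44 and 5165 in S52, and *H2-D1* with *H2-K1* fills about the same share of each bar.

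How far these closely related genes can be told apart by reads of 51 bases differed between members. In GENCODE M21 transcripts on GRCm38, 129 of 1569 windows of 51 bases in *H2-K1* (8.22%) also occurred in another gene, 102 of them in *H2-D1*. The share was 13.7% for *H2-D1* and 29.0% for *H2-T23*, whereas it was 0 of 810 windows for *B2m*, 0 of 7528 for *Nlrc5* and 0 of 2720 for *Pdia3*. *H2-T9*, *H2-Q8*, *H2-Q9* and *H2-L* had values but no transcript under these symbols in that set, and were not compared. Windows shared with them are not counted, so the shares of heavy chain genes may be too low. It reached 34.3% for *H2-Q7*, 38.2% for *H2-Q4* and 43.9% for *H2-T22*, so values of these genes, and in part of *H2-T23*, are uncertain. The windows of *Tap1* were shared at 6.41%, mostly with *Psmb9*, whose transcript overlaps it on the opposite strand. The library kit does not mark strand, so fragments of that overlap cannot be assigned to either gene. For *Tapbp* 20.9% of windows were shared, mostly with the overlapping annotated gene *Gm19412*. How fragments matching several genes were divided is not given in the sources used here.

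By position on GRCm38, *B2m* lies at chr2:122147686-122153083 and *Pdia3* at chr2:121413775-121438687, both on the plus strand. Within the major histocompatibility complex, *Tapbp* (chr17:33915899-33929292, plus) and *H2-K1* (chr17:33996017-34000347, minus) lie near the class II interval with *Tap1* (chr17:34187553-34197225, plus) and *Tap2* (chr17:34203527-34216321, plus), followed by *H2-D1* (chr17:35262730-35267499, plus) and *H2-T23* (chr17:36029773-36032855, minus). *Calr* (chr8:84841850-84846934, minus) and *Nlrc5* (chr8:94434356-94527272, plus) are on chromosome 8.

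Among the genes that supply peptides, the immunoproteasome subunit genes *Psmb8* (100.3, 142 and 134 FPKM), *Psmb9* (129, 219.6 and 135) and *Psmb10* (124, 181 and 128), whose products replace the constitutive catalytic subunits, were highest in S44, as was *Psme2* (131, 169 and 151) of the PA28 activator. *Psme1* of the same activator was highest in S52 (179.5, 253 and 260.3 FPKM). In all, 4 of these 5 genes were highest in S44, or 2 with equal column sums. Of 3 constitutive catalytic subunits 1 was, *Psmb6* at 88.0, 92.2 and 88.7 FPKM, or 0 with equal column sums. The share of all genes was 28.9%, or 4.05% with equal column sums. *Psmb9* was at 1.46 times *Psmb6*, the subunit it replaces, in S38, at 2.38 times in S44 and at 1.52 times in S52. The ratio of *Psmb8* to *Psmb5* had another order of libraries, with 1.13, 1.602 and 2.16. Of 7 genes for trimming peptides 2 were highest in S44, or 0 with equal column sums. They were *Erap1*, the trimming peptidase of the endoplasmic reticulum (38.8, 48.5 and 36.0 FPKM), and *Lap3* (15.3, 18.6 and 15.04).

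Among 15 genes for transcription of class I genes, 7 were highest in S44, against 28.9% of all genes. With equal column sums 2 were, against 4.05%. *Irf1*, which binds interferon response elements, followed another order than *Nlrc5*, with 404, 636 and 877 FPKM, highest in S52. Of the factors that bind the SXY module, 5 spread by at most 1.34-fold: *Rfx5* at 2.81, 3.76 and 3.56 FPKM, *Rfxap* at 3.18, 3.53 and 3.21, *Creb1* at 11.2, 10.6 and 10.9, *Nfya* at 27.5, 30.6 and 33.2 and *Nfyc* at 19.99, 20.8 and 21.5. *Rfxank* (6.18, 4.01 and 4.99 FPKM) and *Nfyb* (11.2, 13.5 and 8.41) spread more. The NF-kB genes *Rela* and *Nfkb1* were both highest in S52, with means of 75.3 and 43.3 FPKM.

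Receptors for interferons were present, and their ligands were at or near 0. *Ifngr1* was read at 75.1, 67.6 and 49.9 FPKM, *Ifngr2* at 35.4, 29.9 and 28.3, *Ifnar1* at 19.9, 20.5 and 17.8 and *Ifnar2* at 70.7, 62.7 and 69.8, and 1 of the 4 was highest in S44, or 0 with equal column sums. Of 7 interferon genes, 6 were listed at 0 in every library, and *Ifng* was listed at 0 in S38 and S52 and at 0.392 FPKM in S44, about 16.0 fragments. A level of 3 fragments over a 2000-base transcript equals 0.0417 to 0.0478 FPKM at these depths, which bounds a value of 0 for counting error only.

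Among 14 interferon-induced genes 13 reached a mean of 1 FPKM, and 7 of the 13 were highest in S44 and the other 6 in S52. With equal column sums 4 were highest in S44 and 3 in S38. The share of all genes highest in S44 was 28.9%, or 4.05% with equal column sums. *Gbp2* (121, 216 and 188 FPKM), *Ifit1* (23.5, 39.9 and 25.1), *Ifit3* (21.5, 40.0 and 26.7) and *Irf7* (30.6, 44.8 and 30.1) were of the first kind, and *Isg15* (77.5, 135 and 151), *Cxcl10* (24.5, 40.6 and 78.1) and *Ifitm3* (1363, 1548 and 1842) of the second. As deposited, all 13 were higher in S44 than in S38, against 44.8% of genes that averaged 1 FPKM or more over S38 and S44. This did not hold for all 13 with equal column sums. The median log2 ratio of S44 to S38 over them was 0.73, and that of S52 to S38 was 0.43. For the other detected heavy chain genes these medians were 0.49 and 0.24, and for the immunoproteasome with its activator 0.50 and 0.20.

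All 7 genes of class II presentation, which serves CD4 T cells, were also highest in S44, against 28.9% of all genes. With equal column sums 3 of 7 were, against 4.05%. *Ciita*, the class II counterpart of *Nlrc5*, was read at 6.35, 11.4 and 4.19 FPKM, the same order of libraries as *Nlrc5*, and *H2-Ab1* at 343, 597 and 333 FPKM. *Cd74*, the invariant chain, spread little, with 894, 999 and 896 FPKM. The summed level of the 8 leukocyte markers, 812 FPKM in S44, lay below that in S38, 1079, but it was mostly *Lyz2* (1047, 780 and 166 FPKM). *Ptprc*, *Cd79a*, *Nkg7* and *Lyz2* were lower in S44 than in S38, whereas *Csf1r* (1.25, 1.85 and 1.30 FPKM), *S100a8* (13.6, 17.8 and 0.251), *Itgam* (0.465, 0.870 and 0.0390) and *Cd3e* (0.206, 0.261 and 0) were higher, genes named here after their values were seen. Their part in these values was not tested.

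**Figure D5:**
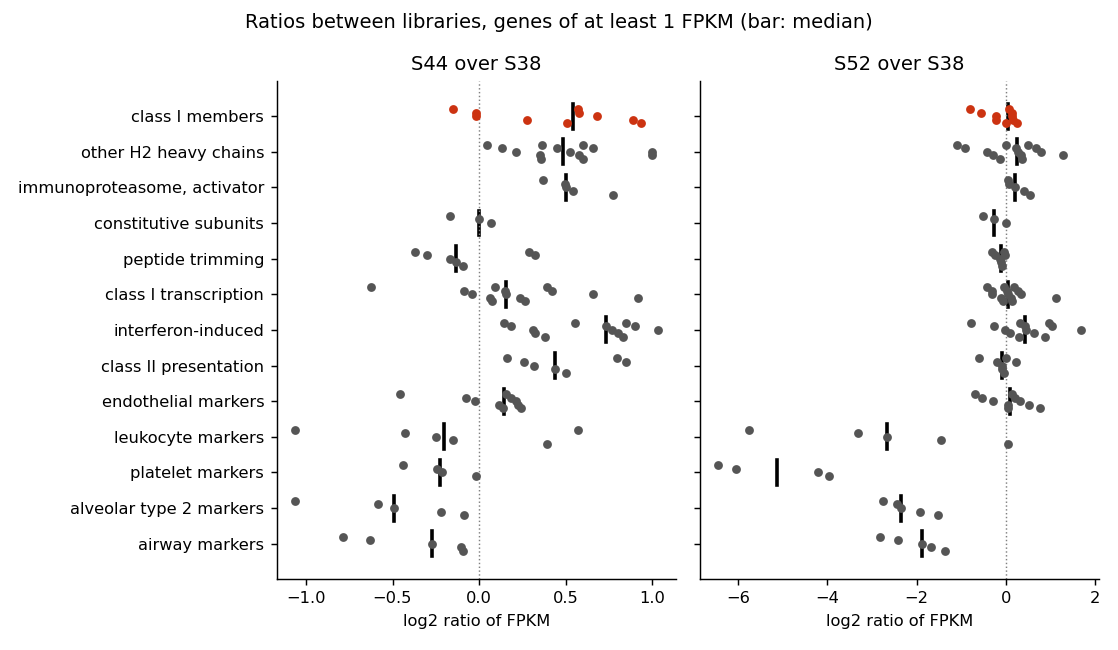
Log2 ratios of FPKM of S44 to S38 (left) and of S52 to S38 (right, on a wider axis) for the 10 members (red) and, without members, for genes of related lists and marker lists (grey), where they averaged 1 FPKM or more. Bars are medians: 0.54 and 0.04 for the members, 0.73 and 0.43 for interferon-induced genes, -0.23 and -5.12 for platelet markers. For leukocyte markers 6 genes are drawn on the left and 5 on the right, where the gene listed at 0 in S52 is left out.

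Of 5 class I-like genes outside the H2 region, 4 averaged between 13.3 and 43.3 FPKM, and *Cd1d2* averaged 0.134 FPKM. *Hfe*, which regulates iron uptake, was read at 38.1, 47.3 and 44.5 FPKM, *Fcgrt*, the neonatal Fc receptor, at 34.9, 41.9 and 37.5, *Mr1*, which presents vitamin metabolites, at 13.4, 13.6 and 13.1, and the lipid-presenting *Cd1d1* at 14.6, 10.2 and 20.2. The first 3 of these spread by at most 1.24-fold between libraries. Of 6 genes with values for ligands of the activating receptor NKG2D only *Ulbp1* reached a mean of 1 FPKM, with 0.522, 2.30 and 0.973 FPKM.

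Of 8 genes for general chaperones and folding enzymes of the endoplasmic reticulum 5 were highest in S44, or 0 with equal column sums, and none was over 1.25 times each other library. *Hspa5*, the chaperone BiP, was read at 386, 385 and 723 FPKM and was highest in S52, and *Hsp90b1* at 352, 288 and 261 FPKM was highest in S38, the order of *Pdia3*.

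Likeness to *B2m* over the 3 libraries was measured as the root mean square difference of log2(FPKM + 1) deviations from each gene's own mean. Of the other members *Calr* was closest, at 0.00056, followed by *Pdia3* at 0.14 and *H2-D1* at 0.15, and *Nlrc5* was farthest, at 0.56. Among 782 genes outside the 10 that averaged 100 FPKM or more, the closest were *Ech1*, *Skp1a* and *Tspan12*, at 0.0034, 0.0079 and 0.0095, and none of the 782 was closer than *Calr*. No fewer than 181 of the 782 genes lay within 0.1 of *B2m*, so over 3 libraries this pattern marks out no small group.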

How the data were processed

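RNA of FACS-sorted lung ECs was made into non-stranded, poly-A selected libraries and sequenced as 51-base read pairs. The authors deposited 1 table of FPKM values per gene symbol for S38, S44 and S52 on mm10. The submitters' processing notes name bcl2fastq 2.17, FastQC 0.11.5, Trimmomatic 0.36, TopHat2 2.1.0 and Cufflinks 2.2.1, whereas the methods of the study describe STAR and HTSeq. The gene annotation behind the values is not given in the sources used here. FPKM gives very short genes large values, and 1318 short noncoding genes, which took 60.2% to 70.4% of each column's sum, were left out of ranks. No column of values was left out. A column of gene descriptions was not used.

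Values were used as deposited, and genes averaging 1 FPKM or more count as detected. Means, SDs, ratios and counts were computed in Python 3.11.15 with pandas 2.3.3 and numpy 2.4.6. With 1 group there was no test. Libraries were grouped by their titles. Depth was estimated as the number of fragments that brings low FPKM values of 7077 genes with 1 basic GENCODE M21 transcript closest to whole fragments, 74.9% to 77.8% of these low values lying within 0.15 of one. The method recovered the known depths of 3 simulated libraries of the same genes, made of whole counts over the same lengths. That checks the calculation and not how well the deposited values meet its assumptions. The depth is an estimate, and errors from it cover counting only.

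The members and all lists were chosen with earlier results of these data known. Genes named are the 10 members, the genes of the pathway lists, the 2 next above and the 2 next below *B2m* by mean, of which none is above, the 3 most like *B2m*, and 5 markers, with 1 gene of these lists not reported here. Alternatives were other scalings, limits and pseudocounts and leaving out each library, and the 2 counts for S44 with their limits were added after seeing the data. *H60a* of the NKG2D ligands was not analysed here. Proteins of the heavy chains were not compared.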

Additional observations from a re-analysis of the deposited data

How the results depend on the processing

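No paired analysis was possible because the 3 libraries form 1 group. Rescaling each library to the same sum without short noncoding genes, or by a median ratio, moved no count by more than 1 and kept the median level of 327 FPKM within its SD. Rescaling to a sum of 1000000, most of which is short noncoding genes, lowered the median member from 327 to 236 FPKM. The members lowest in S52 rose from 4 to 9, against 40.1% of genes. Those over 1.25 times each other library in S44 fell from 5 to 2, *Tap1* and *Nlrc5*, against 1.39% of genes. This rescaling also made S38 the highest library for *H2-D1*, so that 6 members were highest in S44, against 4.05% of genes. Under it the median log2 ratio of S44 to S38 over the 5463 genes with at least 10 FPKM in every library was -0.46, and over the members 0.06. Without 1 library, the median member lay between 294 and 350.4 FPKM. The members over 1.5-fold numbered 2 without S38, 1 without S44 and 3 without S52, against 29.7%, 30.9% and 14.0% of genes. Those lowest in S52 numbered 10 without S38 and 4 without S44, against 54.9% and 56.7% of genes. A limit of 2-fold between libraries left 1 member, *Nlrc5*, in place of 3, against 20.1% of genes. A limit of 1.5-fold in S44 left 2 in place of 5, against 2.40% of genes. With genes of at least 10 FPKM, 1 of the 3 genes most like *B2m* was the same. Depth limited none of the members, and 3 libraries of 1 condition limit every statement on spread.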

Other observations

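Ranking 6151 genes that averaged 10 FPKM or more, short noncoding genes left out, by how far S44 exceeded the higher of the other libraries put *Nlrc5* at rank 13, *Tap1* at 17, *Psmb9* at 23, *Tapbp* at 48, *H2-T23* at 55 and *Tap2* at 68. The other members stood lower, *H2-K1* at 300, *H2-D1* at 760, *Calr* at 2060, *B2m* at 2074 and *Pdia3* at 3322. Some genes of the pathway lists stood near the end, such as *Irf1* at 5351 and *Cxcl10* at 6056. Among the 20 highest genes were also *Ch25h*, *Smim4*, *Dnajb13*, *E130102H24Rik* and *Fam71f2*. Others of those 20 were picked for description after their values were seen. They include the guanylate-binding protein genes *Gbp5* (10.2, 26.6 and 8.04 FPKM in S38, S44 and S52, rank 5) and *Gbp4* (33.8, 101 and 49.9), the tryptophanyl-tRNA synthetase gene *Wars* (140, 255 and 130.4), the tryptophan-degrading enzyme gene *Ido1* (11.3, 20.4 and 10.98) and *Il18bp* (14.03, 24.6 and 13.3), which encodes an antagonist of interleukin 18. Globin genes led the same ranking, with *Hba-a2* at 56.5, 321 and 0.0165 FPKM and *Hbb-b1* at 40.8, 405 and 113 FPKM, and the part of red blood cell RNA in S44 was not tested for any other gene. *Ass1*, an enzyme of arginine synthesis, stood at rank 3 with 7.26, 26.9 and 5.98 FPKM.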
